A study of Mus musculus with 11 samples.

Results

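The 10 genes described here are clock genes and the output genes that they drive, namely the period genes Per1, Per2 and Per3, the nuclear receptors Nr1d1 and Nr1d2, the bZIP factors Dbp, Tef and Hlf, the repressor Ciart, and Clock. They were listed by name and matched by symbol among the 53700 gene identifiers counted in the cortex of 11 female mice aged 8 months. All 10 were matched and all 10 had enough reads to be tested. The question was whether they differed between 5xFAD mice with an intact Abi3 gene (Abi3+/+, 6 animals) and 5xFAD mice without it (Abi3-/-, 5 animals), and whether their co-variation from animal to animal bears on the time of day at which each brain was taken.

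Every animal in both groups carried the 5xFAD transgenes, which are mutant human genes of familial Alzheimer's disease driven by the neuronal Thy1 promoter, so there was no group without amyloid. The strain label was C57BL/6 for all animals. By the methods of the study, the 5xFAD line came from a mixed B6SJL background, all mice were heterozygous for the Trem2 variant that SJL mice carry, and the Abi3 allele, Abi3tm1.1(KOMP)Vlcg, was a definitive null made in C57BL/6N. Abi3 encodes an adaptor of the actin-regulating WAVE complex, and the null was germline, so every cell type of the cortex lacked it. Mice were perfused under Avertin anaesthesia and the cortex of the right hemisphere was frozen. The hour of collection and the light schedule are not given in the sources used here.

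The circadian clock is a feedback loop in which CLOCK (or NPAS2) and BMAL1 switch on the Per and Cry genes, whose proteins then return to shut CLOCK and BMAL1 off. A second loop runs through NR1D1 and NR1D2, also called REV-ERB alpha and beta, which repress Bmal1, while ROR proteins activate it. DBP, TEF and HLF are PAR bZIP activators that carry the rhythm to further genes through D-box elements, and NFIL3 opposes them at the same sites. In nocturnal rodents kept in a light-dark cycle, the transcripts of Dbp, Nr1d1, Nr1d2 and Per3 crest during the light phase, Per2 and Cry1 follow later, and Bmal1, Clock and Npas2 are at their height when Dbp and Nr1d1 are low. The cortex holds such a clock in neurons and in glia, so a rhythm in whole tissue is a sum over cell types.

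The sequences before the transcription starts are shown for the genes on which the comparison between animals turned, Dbp, Nr1d2, Per3 and Nr1d1, and for Ciart, which had the most E-boxes. Each run is the 250 bases before the first start site that RefSeq gives on GRCm38.p6, an earlier build than the GRCm39 of the gene positions given with the values, 5′ to 3′ on the strand of the gene. Capitals mark an E-box (CACGTG), an E′-box (CACGTT), a D-box (TTATGTAA or TTATGCAA), a ROR half-site (AGGTCA) or a cyclic AMP response element (TGACGTCA), found on either strand. Of these motifs, no match overlapped another in the runs printed.
Dbp, chr7:45704997-45705246, + strand: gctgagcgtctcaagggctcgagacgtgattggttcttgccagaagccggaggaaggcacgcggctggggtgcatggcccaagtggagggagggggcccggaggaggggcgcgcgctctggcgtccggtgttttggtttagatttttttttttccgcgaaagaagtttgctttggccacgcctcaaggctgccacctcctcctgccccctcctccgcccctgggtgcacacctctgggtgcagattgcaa
Nr1d2, chr14:18239107-18239356, - strand: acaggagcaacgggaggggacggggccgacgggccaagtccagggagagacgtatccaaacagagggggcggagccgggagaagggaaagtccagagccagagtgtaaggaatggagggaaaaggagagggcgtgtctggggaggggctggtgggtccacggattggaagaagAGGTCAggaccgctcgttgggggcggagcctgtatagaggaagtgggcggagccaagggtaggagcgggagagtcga
Per3, chr4:151044666-151044915, - strand: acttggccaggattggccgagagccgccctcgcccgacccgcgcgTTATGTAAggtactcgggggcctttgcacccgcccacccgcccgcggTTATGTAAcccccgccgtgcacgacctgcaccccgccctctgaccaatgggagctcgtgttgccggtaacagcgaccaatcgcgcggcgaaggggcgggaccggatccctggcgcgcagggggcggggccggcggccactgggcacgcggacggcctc
Nr1d1, chr11:98775378-98775627, - strand: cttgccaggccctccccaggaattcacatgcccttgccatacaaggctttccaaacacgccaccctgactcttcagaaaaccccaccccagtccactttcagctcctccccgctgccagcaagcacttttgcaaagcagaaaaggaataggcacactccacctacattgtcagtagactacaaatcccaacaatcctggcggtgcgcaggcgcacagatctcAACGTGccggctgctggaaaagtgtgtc
Ciart, chr3:95882229-95882478, - strand: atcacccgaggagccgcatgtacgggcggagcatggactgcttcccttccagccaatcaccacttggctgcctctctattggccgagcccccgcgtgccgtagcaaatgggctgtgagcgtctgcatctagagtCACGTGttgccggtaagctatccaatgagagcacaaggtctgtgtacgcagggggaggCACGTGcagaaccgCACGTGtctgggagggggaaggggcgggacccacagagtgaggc

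RefSeq start sites were matched for 9 of the 10 genes, with 13 start sites in all, and Per2 was not matched. An E-box, the element bound by CLOCK and BMAL1, lay before 3 of the 9 genes. Ciart had 3 copies, with first bases 116, 58 and 44 bases before the start, Per1 had 1 at 166 bases, and Tef had 1 before each of its start sites. The E-box occurred in 6.02% of all 32851 RefSeq promoters of the same length. A D-box lay before Per3 in 2 copies, at 205 and 158 bases, and before Per1 at 24 bases, against 1.5% of all promoters. Nr1d1 had an E′-box at 28 bases (3.85% of all promoters), Nr1d2 a ROR half-site at 77 bases (14.02%), which also lay before Per1 and 1 start site of Clock, and Hlf a cyclic AMP response element at 9 bases (1.55%). The Dbp run held none of these letters, which says nothing about the binding of a factor there or elsewhere in the gene.

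The libraries held 3202310 to 5501958 reads in genes per animal, and the mean number of reads was 4213426 in Abi3+/+ and 3457200 in Abi3-/- animals. Abi3 had 33, 38, 20, 16, 10 and 11 reads in the Abi3+/+ animals and 0, 2, 0, 0 and 0 in the Abi3-/- animals, so no library went against its genotype label. Reads outside annotated genes differed between the genotypes, at 65.9 ± 3.67 per 100 reads in genes in Abi3+/+ (SD, n = 6, range 59.3 to 68.8) and 54.0 ± 4.99 in Abi3-/- (SD, n = 5, range 49.8 to 62.5). The defining markers of cortical neurons, astrocytes, oligodendrocytes, microglia and endothelium were detected in every animal. Summed markers of choroid plexus ranged from 42.7 to 3543 normalized counts. In whole cortex, fewer cells of a type and less RNA per cell cannot be told apart, and the counts below are of 3′ ends, so levels are compared between animals and not between genes.

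No difference between Abi3-/- and Abi3+/+ mice passed the test in any of the 10 clock genes. With DESeq2, 0 of 10 passed the threshold used throughout (p adjusted by Benjamini-Hochberg, 0.05 or lower), where 0.539% of the 17626 genes tested did (95 genes). At an unadjusted p under 0.05 there was 1 clock gene, Hlf, against 8.58% of all genes tested. The quasi-likelihood test of edgeR called 0 of the 10 (0.21% of all genes) and had 0 at an unadjusted p under 0.05, and limma called 0 (0.113% of all genes) and had 1. In no clock gene were the values of the genotypes apart without overlap, against 1.04% of all genes. The log2 fold changes, given as Abi3-/- over Abi3+/+, were positive for 7 genes and negative for 3, with a median of 0.02 beside -0.00 for all genes tested. DESeq2 gave 8 of the 10 an adjusted p and left out Nr1d1 and Ciart, whose mean normalized counts lay under the 70.4 that its independent filtering required.

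Values below are read counts divided by the size factor of each library, called normalized read counts. Replicate numbers name the animals, and the labels do not tie animals of the 2 genotypes to each other. Gene positions are those of GRCm39. The opposite strand of 7 of the 10 genes holds exons of another gene, such as Thra across from Nr1d1 and Sphk2 across from Dbp. Reads were counted by strand, so reads of these partners were not counted to the clock genes.

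**Figure D1:**
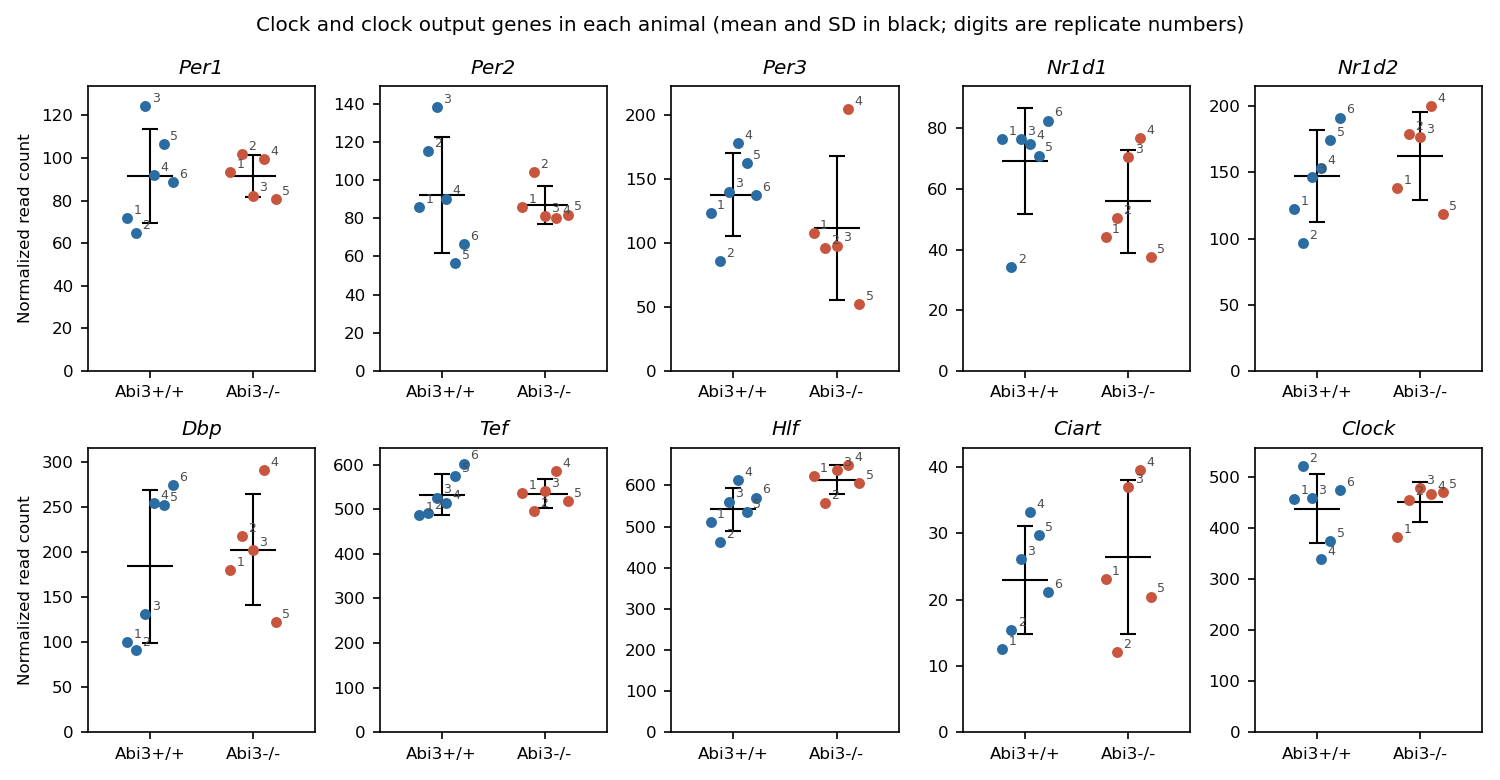
Normalized read counts (vertical axes, from 0) of the 10 clock genes in 6 Abi3+/+ animals (blue) and 5 Abi3-/- animals (red), with the replicate number beside each point and the mean and SD in black. The genotypes overlap in every panel, while Dbp runs from 91.0 to 291 and Per3 from 52.3 to 204 among animals.

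The period genes encode the repressors that close the loop. Per1 (chr11:68986035-69002300, 26.7 Mb from Abi3), whose transcript also answers light and glucocorticoids, ranged from 64.9 to 124 with a median of 90.4 normalized read counts in Abi3+/+ animals and was 93.3, 102, 82.4, 99.4 and 80.8 in the Abi3-/- animals 1 to 5. All Abi3-/- values lay inside the Abi3+/+ range. The means were 91.4 ± 21.95 (SD, n = 6) and 91.6 ± 9.67 (SD, n = 5), and the log2 fold change was 0.01 (SE 0.189, 95% interval -0.37 to 0.38, adjusted p = 0.995). The Abi3-/- animals lay closer together, a difference in spread that was not tested.

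Per2 (chr1:91343700-91387069) encodes a repressor that mice need for a lasting behavioural rhythm. Its lowest, median and highest normalized read counts in Abi3+/+ animals were 56.5, 88.0 and 138, and the Abi3-/- animals had 86.0, 104, 81.2, 80.2 and 81.9. The Abi3+/+ animals reached both lower and higher than any Abi3-/- animal, and replicate 3 was their highest. The means were 92.0 ± 30.3 (SD, n = 6) and 86.7 ± 9.96 (SD, n = 5), with a log2 fold change of -0.08 (SE 0.216, 95% interval -0.51 to 0.34, adjusted p = 0.928).

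Per3 (chr4:151081373-151129140) is dispensable for the core loop but strongly rhythmic. It ran from 85.6 through a median of 139 to 178 in Abi3+/+ animals and was 108, 96.0, 97.9, 204 and 52.3 in Abi3-/- animals. Abi3-/- replicates 4 and 5 held the highest and the lowest value of all 11 animals, 3.905-fold apart. The means were 138 ± 32.1 (SD, n = 6) and 112 ± 56.1 (SD, n = 5), the log2 fold change was -0.30 (SE 0.247, 95% interval -0.79 to 0.18) and the adjusted p was 0.676. Without Abi3-/- replicate 4 the log2 fold change was -0.63 (adjusted p = 0.128), and without replicate 5 it was -0.12. When reads outside genes, per 100 in genes, entered the fit as a covariate, the sign turned, to a log2 fold change of 0.43 with an adjusted p of 1.0.

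Nr1d1 and Nr1d2 encode haem-binding repressors of Bmal1 and of many metabolic genes. Nr1d1 (chr11:98658752-98666188) lies 2.94 Mb from Abi3. In Abi3+/+ animals its lowest, median and highest normalized read counts were 34.1, 75.7 and 82.5, and in Abi3-/- animals it had 44.0, 50.5, 70.4, 76.8 and 37.6. Of the Abi3+/+ animals, replicate 2 stood apart at the low end while the other 5 lay between 71.0 and 82.5. The means were 69.2 ± 17.6 (SD, n = 6) and 55.9 ± 17.0 (SD, n = 5), and the log2 fold change of -0.30 (SE 0.254, 95% interval -0.80 to 0.19) had an unadjusted p of 0.230 and turned to 0.16 with the same covariate.

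Nr1d2 (chr14:4230545-4266624) ran from 96.4 through a median of 149.9 to 191 in Abi3+/+ animals and was 138, 179, 177, 199.9 and 118 in Abi3-/- animals. Its lowest animals were Abi3+/+ replicates 2 and 1 and Abi3-/- replicate 5, and its highest was Abi3-/- replicate 4. The means of 147 ± 34.5 (SD, n = 6) and 162 ± 33.1 (SD, n = 5) gave a log2 fold change of 0.14 (SE 0.180, 95% interval -0.21 to 0.50, adjusted p = 0.814).

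Dbp (chr7:45354512-45359627) is the output gene with one of the deepest daily swings known in mouse tissues, and it varied widely here. In Abi3+/+ replicates 1, 2 and 3 it had 100.4, 91.0 and 132 normalized read counts, and in replicates 4, 5 and 6 it had 255, 253 and 275. The Abi3-/- animals had 180.4, 218, 203, 291 and 123. The Abi3+/+ animals thus formed a low and a high set of 3, and 3 of the Abi3-/- animals fell in the gap between the sets. The means lay closer to each other than the animals did, at 184 ± 85.3 (SD, n = 6) and 203 ± 61.2 (SD, n = 5), with a log2 fold change of 0.14 (SE 0.362, adjusted p = 0.929). The 95% interval of the ratio, 0.674 to 1.80, leaves room for sizeable change in either direction. Without Abi3-/- replicate 4, the highest animal, the log2 fold change was -0.02, and with reads outside genes as covariate it was 0.87 (adjusted p = 1.0).

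Tef (chr15:81686622-81711064) and Hlf, the other PAR bZIP genes, were far steadier than Dbp. Tef ran from 487 through a median of 519.9 to 602 in Abi3+/+ animals and was 536, 496, 541, 585 and 518 in Abi3-/- animals. All Abi3-/- values again lay inside the Abi3+/+ range, and the highest animal was 1.24-fold above the lowest. The log2 fold change of Tef was 0.01 (SE 0.0843, 95% interval -0.16 to 0.17, adjusted p = 0.986), the narrowest interval of the 10 genes.

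Hlf (chr11:90227221-90281761, 5.47 Mb from Abi3) came closest to a difference. It had 462, 548 and 613 normalized read counts as its lowest, median and highest values in Abi3+/+ animals and 622, 558, 637, 648 and 605 in Abi3-/- animals. All 5 Abi3-/- animals lay above the Abi3+/+ mean, and 3 lay above every Abi3+/+ animal. The means were 542 ± 52.3 (SD, n = 6) and 614 ± 35.5 (SD, n = 5), the log2 fold change was 0.18 (SE 0.0857, 95% interval 0.01 to 0.35) and the unadjusted p was 0.0349. The adjusted p was 0.361, and it ranged from 0.172 to 1.0 over 21 other settings, so Hlf was called in none of them. Per1, Nr1d1 and Hlf share chromosome 11 with Abi3. DNA that the null allele carries along from C57BL/6N and a consequence of losing Abi3 cannot be told apart for them in this design.

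Ciart (chr3:95785815-95789991), also called Chrono, represses the CLOCK and BMAL1 pair at E-boxes. Its counts were low, 11 to 41 reads per animal. It ran from 12.6 through a median of 23.7 to 33.2 normalized read counts in Abi3+/+ animals and was 23.1, 12.1, 37.0, 39.5 and 20.5 in Abi3-/- animals. The lowest and the highest animals were both Abi3-/-, replicates 2 and 4, and the log2 fold change of 0.19 (SE 0.369) had a 95% interval from -0.54 to 0.91, the widest of the 10 genes.

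Clock (chr5:76342860-76452846), the activator whose transcript cycles little in most tissues, ran from 339.9 through a median of 458 to 522 in Abi3+/+ animals and was 382, 456, 479, 466 and 471 in Abi3-/- animals. Abi3-/- replicate 1 was below the other 4, which lay close together. The means of 438 ± 67.6 (SD, n = 6) and 451 ± 39.5 (SD, n = 5) gave a log2 fold change of 0.04 (SE 0.111, 95% interval -0.18 to 0.26, adjusted p = 0.932).

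**Figure D2:**
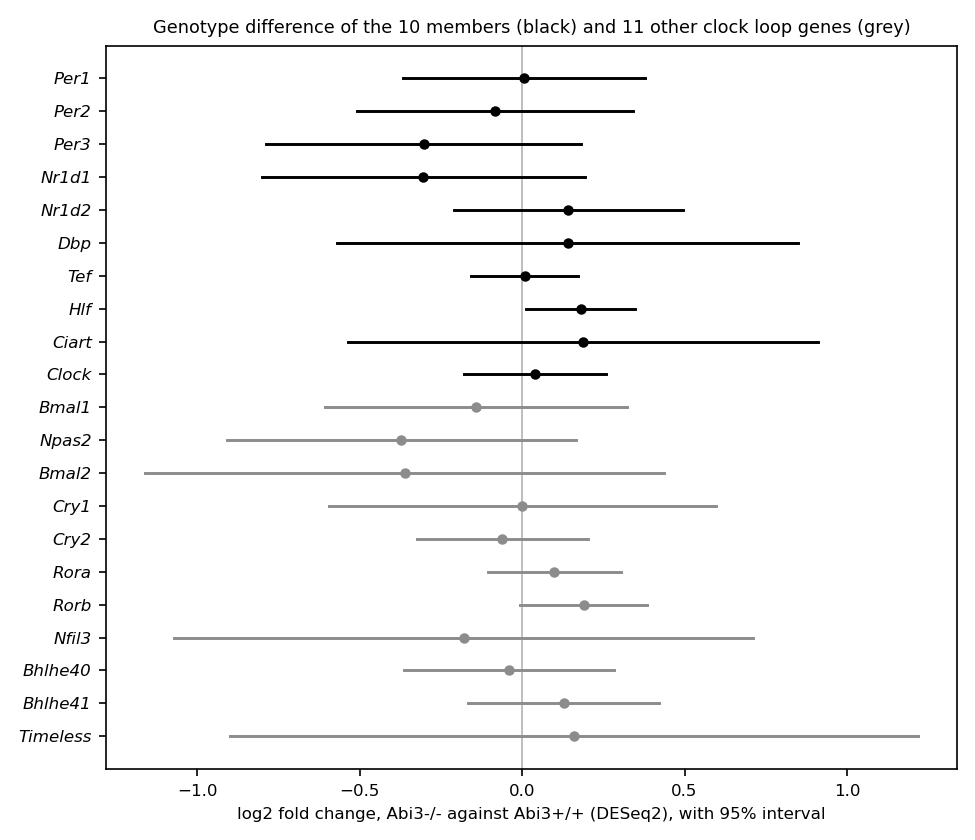
Log2 fold change of Abi3-/- over Abi3+/+ (horizontal axis, points) with its 95% interval (lines) for the 10 clock genes (black) and 11 other genes of the clock loop (grey), from DESeq2. Every interval crosses 0 apart from that of Hlf, which runs from 0.01 to 0.35 before adjustment for the number of genes tested.

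The rest of the loop was described by 11 further genes that were tested. DESeq2 called 0 of the 11 (0.539% of all genes tested), and edgeR and limma called 0 as well (0.21% and 0.113% of all genes). By any of these tools 0 had an unadjusted p under 0.05, where 8.58% of all genes did by DESeq2. With shares this low, 0 of 11 says little about these genes. Bmal1 (chr7:112806152-112914735), the partner of CLOCK and the target of NR1D1 and NR1D2, ran from 58.7 through a median of 70.1 to 130 in Abi3+/+ animals and was 67.1, 45.5, 69.2, 77.9 and 95.6 in Abi3-/- animals. Abi3+/+ replicate 1 and Abi3-/- replicate 5 were its highest animals. The log2 fold change was -0.14 (SE 0.238, 95% interval -0.61 to 0.32, adjusted p = 0.875). Those of the other named genes were -0.37 for Npas2 (95% interval -0.91 to 0.17), 0.00 for Cry1 (-0.60 to 0.60), -0.06 for Cry2 (-0.32 to 0.20) and -0.18 for Nfil3 (-1.07 to 0.71).

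Genes that act on the clock or follow it were examined as lists. None of 11 kinases, ubiquitin ligases and deubiquitinases that act on clock proteins was called, none of 7 genes that are rhythmic in many tissues, and none of 12 activity-induced genes, with 0, 1 and 0 at an unadjusted p under 0.05 by DESeq2. Of all genes tested, 0.539% were called, 8.58% had such a p and 1.04% did not overlap between genotypes, so 1 of these genes is close to that background. The single gene was Lonrf3, at 1 to 21 reads per animal, which was lower in every Abi3-/- animal (1.19 to 4.55 normalized read counts) than in any Abi3+/+ animal (6.02 to 17.9) and had an unadjusted p of 0.0285 and no adjusted p. By edgeR and limma these 3 lists also had 0 calls, where 0.21% and 0.113% of all genes were called.

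Of 9 glucocorticoid targets tested, 1 passed in DESeq2, Sgk1, where 0.539% of all genes did, and it was also the 1 with an unadjusted p under 0.05 (8.58% of all genes). Sgk1 encodes a kinase that glucocorticoids and cell stress induce. It had 66.9, 79.6 and 115 normalized read counts as its lowest, median and highest values in Abi3+/+ animals and 66.1, 148, 107, 194 and 206 in Abi3-/- animals. The highest 3 animals were Abi3-/- replicates 2, 4 and 5, while replicate 1 lay below every Abi3+/+ animal. The log2 fold change was 0.81 (SE 0.237) with an adjusted p of 0.0482, and it was called in 7 of 21 other settings. The call was lost with edgeR (adjusted p = 0.0806), with limma (0.257) and without independent filtering (0.116). It was lost too with TMM factors (0.0581) and with reads outside genes as covariate (1.0). The log2 fold change in these settings ran from 0.72 with limma to 1.22 with the covariate. In 5 of the 21 DESeq2 gave no adjusted p. The call was also lost when any of Abi3+/+ replicates 4 or 5 or Abi3-/- replicates 2 or 4 was left out.

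How far the genes varied among animals of the same genotype separated them more clearly than genotype did. DESeq2 estimates for each gene a dispersion, the variance between animals beyond counting noise, and a trend of dispersion on mean count. Among the 7780 genes whose normalized counts averaged 50 or more, the median ratio of dispersion to trend was 0.723. Dbp had a ratio of 7.34 and 0.360% of those genes had a higher one. Per3 followed at 3.86 (1.13% of genes higher) and Nr1d2 at 1.70 (9.61% higher). Per2, Clock and Nr1d1 were at 1.29, 1.29 and 1.25. Per1 at 0.645, Hlf at 0.526 and Tef at 0.368 were below the median gene, and Ciart was under the minimum count. Among the clock modifiers Usp2, a deubiquitinase whose transcript is a rhythmic output in many tissues, had a ratio of 7.45 (0.347% of genes higher).

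The most variable of these genes tended to be high in the same animals and low in the same animals. To describe this apart from genotype, values were taken as log2(normalized count + 1) and set against the mean of the genotype, and the deviations of 2 genes were correlated over the 11 animals. All genes of an animal come from 1 library, so they share its size factor and its tissue. Significance came from an exact two-sided test over all 86400 orders of the animals within genotype, with Benjamini-Hochberg adjustment over the 19 pairs examined, which were each clock gene with Dbp and each with Bmal1.

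Nr1d2 followed Dbp most closely. Pearson's r was 0.91 (exact permutation p = 3.47e-05, adjusted 0.00066) and Spearman's rho was 0.88 (adjusted p = 0.00572), and in the Abi3+/+ animals alone r was 0.91. Without the 2 animals farthest from the median of Dbp, Abi3+/+ replicates 1 and 2, r was 0.84. The pair passed in 16 of 17 other settings, the exception being the 6 Abi3+/+ animals alone. Among the 7779 other genes whose normalized counts averaged 50 or more, none had a higher r with Dbp than Nr1d2.

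Per3 and Nr1d1 also passed, less firmly. For Per3, r was 0.75 (exact permutation p = 0.0021, adjusted 0.0199) and rho was 0.69 (adjusted p = 0.183), with r = 0.73 without Abi3+/+ replicates 1 and 2 and 0.80 in Abi3+/+ animals alone. For Nr1d1, r was 0.66 (exact permutation p = 0.0072, adjusted 0.0454) and rho was 0.45 (adjusted p = 0.333), with r = 0.62 without those animals and 0.58 in Abi3+/+ animals alone. Per3 passed in 8 and Nr1d1 in 4 of 17 other settings, so only the tie of Nr1d2 to Dbp held by both coefficients and nearly every setting tried. Leaving out Abi3+/+ replicate 2, 4 or 5 or Abi3-/- replicate 4 or 5 brought the pairs with Dbp that passed from 3 of 9 to 1.

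The other PAR bZIP genes leaned the same way as Dbp, over a much smaller range. Tef had r = 0.74 and rho = 0.66 (exact permutation p for r = 0.0250, adjusted 0.119), and Hlf had r = 0.65 and rho = 0.70 (p for r by exact permutation = 0.0591, adjusted 0.224). Neither passed. Ciart had r = 0.57 and Per1 r = 0.54, with adjusted p of 0.224 and 0.317 by the same test. The value for Per1 rested on Abi3+/+ replicates 1 and 2, since r was -0.15 without them, and that for Hlf fell to 0.22. Without the same animals r was 0.53 for Tef and 0.26 for Ciart. Single settings also moved Per1 the other way. It had r = 0.87 without Abi3+/+ replicate 3 and passed (adjusted exact permutation p = 0.0422). After adjustment for reads outside genes it had r = 0.75 and did not pass (adjusted p by approximate permutation = 0.124). Tef passed without Abi3-/- replicate 2 (r = 0.84, adjusted exact permutation p = 0.0426). Per2 and Clock leaned the other way, with r = -0.55 and -0.50 (adjusted p by exact permutation = 0.317 and 0.338), so no relation with Dbp was shown for them in either direction. Without Abi3+/+ replicates 1 and 2, r was -0.55 for Per2 and -0.19 for Clock.

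**Figure D3:**
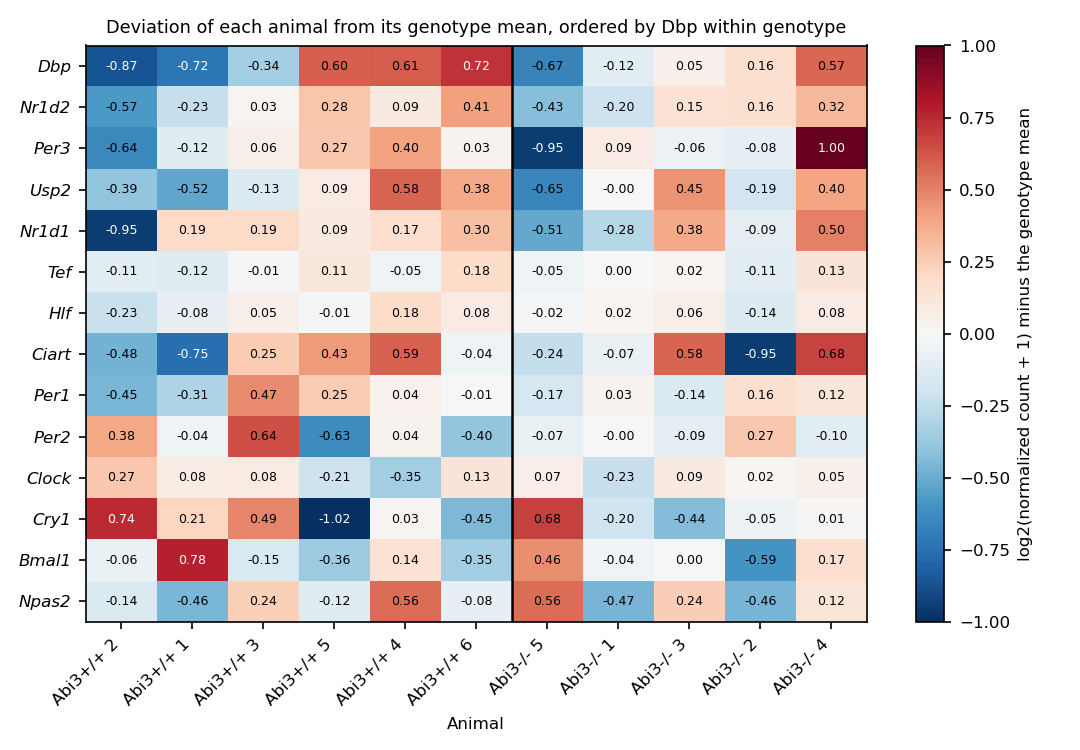
Deviation of each animal from the mean of its genotype, as log2(normalized count + 1), for the clock genes and for Usp2, Cry1, Bmal1 and Npas2 (rows), with animals (columns) ordered by Dbp within each genotype and the value printed in each cell. Abi3+/+ replicates 2 and 1 and Abi3-/- replicate 5 are low in Dbp, Nr1d2, Per3 and Usp2, and Abi3-/- replicate 4 is high in them.

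In the deviations, Dbp was -0.87, -0.72 and -0.34 in Abi3+/+ replicates 2, 1 and 3 and -0.67 in Abi3-/- replicate 5, and it was 0.57 to 0.72 in Abi3+/+ replicates 4, 5 and 6 and Abi3-/- replicate 4. The low and the high animals were found in both genotypes. Abi3+/+ replicate 2 and Abi3-/- replicate 5 were low in 4 genes at once, with Nr1d2 at -0.57 and -0.43, Per3 at -0.64 and -0.95, and Nr1d1 at -0.95 and -0.51. Abi3-/- replicate 4 was the animal at the other end, with Nr1d2 at 0.32, Per3 at 1.00 and Nr1d1 at 0.50. Abi3+/+ replicate 1 broke the pattern, low in Dbp but at 0.19 for Nr1d1. So did Abi3+/+ replicate 3, with Nr1d1 at 0.19, Per3 at 0.06 and Nr1d2 at 0.03.

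Among the clock genes themselves, 9 averaged 50 or more normalized counts and gave 36 pairs, with a median r of 0.52. Of these pairs 50.0% had an r above 0.5, where 7.49% of all pairs of genes at that count did. Leaving aside Per2 and Clock, whose r with Dbp was negative, the r of the remaining 21 pairs ran from 0.42 to 0.91. That subset was chosen after its values were seen. These values describe genes of the same libraries and are not independent of each other.

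**Figure D4:**
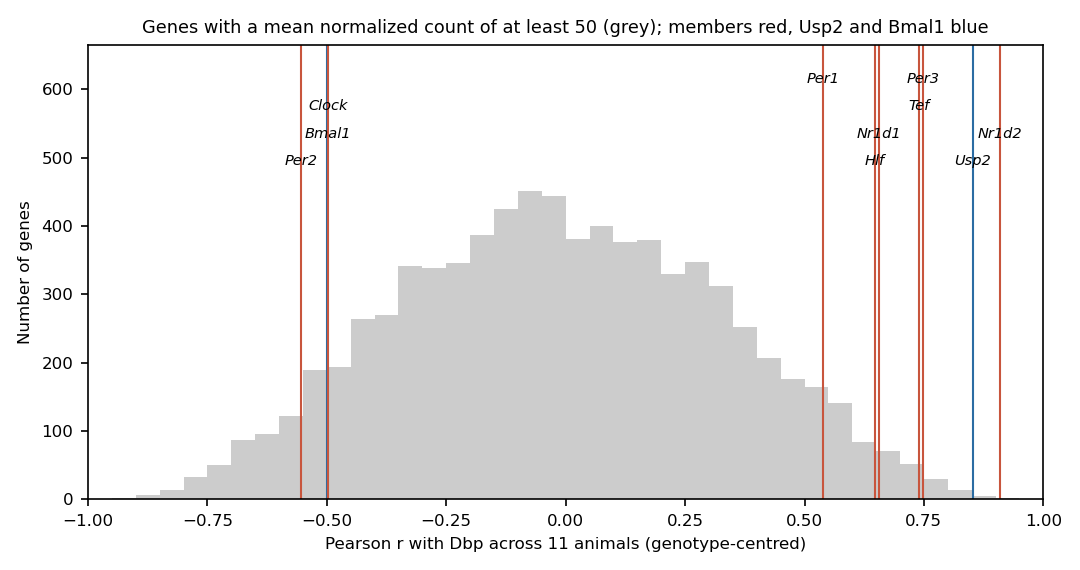
Pearson's r with Dbp over 11 animals, after centring on the genotype (horizontal axis), for 7779 genes averaging 50 or more normalized counts (grey, number of genes on the vertical axis), with the clock genes marked in red and Usp2 and Bmal1 in blue. The quartiles of all genes are -0.26 and 0.23, while Nr1d2 has the highest r, 0.91, and Per2 and Clock lie at -0.55 and -0.50.

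The genes most like Dbp by this measure, chosen as the 10 highest r, were Nr1d2, Plekhm2, Pianp, Ddx46, Insig1, Kif13a, Usp2, Usp3, Pogk and Gm15513, with r from 0.83 to 0.91 over the 11 animals. The 5 lowest were Rabl6, Abcf1, Rpgrip1l, Fam53b and Rbm10, from -0.95 to -0.87. Besides Nr1d2, Usp2 (r = 0.85, rank 7 of 7779) was the clock-related gene in the list. It had 315, 447 and 680 normalized read counts as lowest, median and highest in Abi3+/+ animals and 434, 380, 593, 573 and 275 in Abi3-/- animals, and was lowest in Abi3-/- replicate 5 and Abi3+/+ replicates 1 and 2, the 3 animals lowest in Nr1d2. Among the 7 rhythmic output genes, only Cirbp and Nampt had enough counts for a rank, and they went opposite ways. Cirbp, a cold-induced RNA-binding protein gene whose transcript follows the daily cycle of body temperature, had r = 0.72 (rank 77). Nampt had r = -0.40 (rank 6720). With 7779 genes compared over 11 animals, these ranks are a description.

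The arm of the loop that runs opposite to Dbp was read from Bmal1. Bmal1 against Dbp had r = -0.50 and rho = -0.37 (exact permutation p for r = 0.144, adjusted 0.317), r = -0.35 without Abi3+/+ replicate 1 and Abi3-/- replicate 2, and r = -0.54 in Abi3+/+ animals alone. Its sign was negative with each animal left out in turn, from -0.61 to -0.31, and an opposition of Bmal1 and Dbp was not shown by the test. After adjustment for reads outside genes r was -0.76 (approximate permutation p adjusted over the pairs = 0.0519), farther from 0 but still short of the threshold. This p is approximate because residuals on a covariate are not freely interchangeable between animals. With Bmal1, 0 of 10 clock genes passed, and 0 had an unadjusted exact permutation p under 0.05 for r, against 2 by the approximate p after that adjustment. The values for Nr1d2 and Per1 were -0.49 and -0.51, and those for Tef and Per3 were -0.33 and -0.17. Those for Nr1d1, Ciart, Per2, Clock and Hlf lay between -0.03 and 0.08. In Abi3+/+ animals alone r was -0.75 for Tef and -0.58 for Ciart, and with an animal left out Tef ran from -0.67 to -0.06.

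The 10 other loop genes with enough reads were set against Dbp after the data had been seen. Cry1, the late repressor of the loop, had the strongest relation and it was negative, with r = -0.76 and rho = -0.74. Its exact permutation p for r was 0.0191, adjusted 0.191 over those 10 genes, and r was -0.67 without Abi3+/+ replicates 1 and 2 and -0.80 in Abi3+/+ animals alone. Cry1 had 21.7, 49.3 and 76.3 normalized read counts as lowest, median and highest in Abi3+/+ animals and 40.9, 45.5, 34.6, 47.4 and 76.2 in Abi3-/- animals. Abi3+/+ replicate 2 and Abi3-/- replicate 5, which were low in Dbp, Nr1d1, Nr1d2 and Per3, were the 2 highest in Cry1. The remaining 9 had r between -0.42 and 0.30 with adjusted p of 0.801 or more by the same exact permutation test. Without Abi3+/+ replicates 1 and 2, Rorb had r = -0.79, farther from 0 than Cry1.

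**Figure D5:**
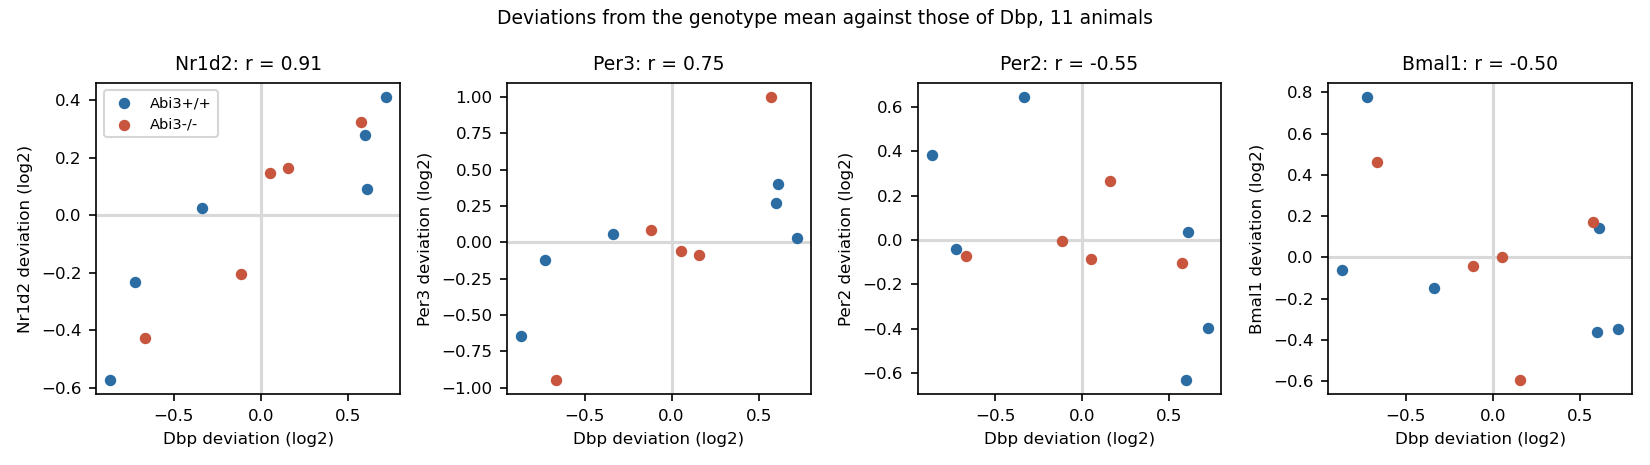
Deviation from the genotype mean on the log2 scale of Nr1d2, Per3, Per2 and Bmal1 (vertical axes) against that of Dbp (horizontal axes) in 6 Abi3+/+ animals (blue) and 5 Abi3-/- animals (red), 1 point an animal. Nr1d2 rises with Dbp in both genotypes (r = 0.91), Per3 does so more loosely (r = 0.75), and the points for Per2 and Bmal1 slope down with scatter (r = -0.55 and -0.50).

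Measures of the libraries were set against Dbp in the same way, also after the data had been seen. Over 14 measures, r ran from -0.44 for summed markers of the meninges to 0.42 for the share of reads outside genes, and none passed (adjusted p by exact permutation of 0.784 or more). Reads in genes had r = -0.01. Without Abi3+/+ replicates 1 and 2, the share of reads outside genes had r = 0.79 with Dbp and the number of genes with a count had r = 0.93, so in the remaining 9 animals Dbp did move with these features of the libraries. With all animals kept and values adjusted for the share of reads outside genes, Nr1d2 had r = 0.90 with Dbp, Per3 0.68 and Nr1d1 0.58. In that setting 1 pair of 9 passed. This adjustment cannot set the library features aside, since over all animals that share had r of only 0.42 with Dbp. No adjustment was made for the number of genes with a count, and its part in these correlations was not tested. The part that the hour of collection had in the deviations was not tested, since no hour is given for any animal.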

How the data were processed

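Cortical RNA of 11 female 5xFAD mice, 6 Abi3+/+ and 5 Abi3-/-, was profiled by QuantSeq 3′ mRNA-Seq (FWD kit, which reads 1 fragment near the poly(A) tail of each transcript). The authors trimmed the reads, aligned them to GRCm39 with STAR 2.7.3a and deposited raw counts per Ensembl gene from HTSeq 0.9.1 run with strand, 1 table an animal, with no pooling. Rows that name no gene (reads outside genes, ambiguous or multiply aligned reads) were kept out of library sizes and tests; reads outside genes came to 49.8 to 68.8 per 100 reads in genes. No molecular identifiers were used and each animal had 1 library. The intervals therefore cover the spread between libraries, in which differences between animals and amplification cannot be told apart. Groups came from the labels, and no 2 libraries of a genotype agreed within counting noise.

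Symbols came from GENCODE, in which 52610 of 53700 identifiers were matched. Genotypes were compared with the DESeq2 1.42.0 Wald test, as in the methods of the study: genes with at least 10 reads in total entered the fit and those averaging 1.5 or more normalized counts the results, with Benjamini-Hochberg adjustment over all genes and a threshold of 0.05. DESeq2 is the main test because the study used it; edgeR 4.0.16 (quasi-likelihood) and limma 3.58.1 (voom with sample weights) were alternatives, with other normalization, filters, a covariate, 1 surrogate variable (sva 3.50.0), a replicate block and each animal left out in turn. The 95% intervals are 1.96 SE on each side. Co-variation used log2(normalized count + 1) centred on the genotype mean, with exact permutation within genotype (86400 orders, and 100000 resamples for pooled values). With the covariate in the centring, the permutation p is approximate. The scripts were tested on simulated data. The clock genes and the gene lists were chosen with earlier results of these data known. The text names all 10 clock genes; Bmal1, Npas2, Cry1, Cry2 and Nfil3; genes of other lists past the threshold or with an unadjusted p under 0.05; and the genes with the 10 highest and 5 lowest r with Dbp. Cirbp, Nampt and Rorb were added after their values had been seen. Promoters are those of RefSeq on GRCm38.p6.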

Additional observations from a re-analysis of the deposited data

Results flagged for a closer look

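In 62 groups of values for the named genes, the gap between an extreme animal and its nearest neighbour was set against the whole range by the test of Dixon, which by chance picks out about 1 group in 20, or 3.1 of 62. It picked out 6. Of the clock genes, Per2 in Abi3-/- replicate 2 was high at 104 normalized read counts (nearest 86.0), Nr1d1 in Abi3+/+ replicate 2 was low at 34.1 (nearest 71.0) and Clock in Abi3-/- replicate 1 was low at 382 (nearest 456). Bmal1 in Abi3+/+ replicate 1 was high at 130 (nearest 83.5). Sgk1 in Abi3+/+ replicate 6 was high at 115 (nearest 83.5), and Lonrf3 in Abi3+/+ replicate 4 was high at 17.9 (nearest 7.41). These fell in 6 different animals, and Abi3+/+ replicate 2, also lowest in Dbp and Nr1d2, is among them.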

How the results depend on the processing

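The counts of 0 clock genes and 0 other loop genes called between genotypes were the same under all 21 alternatives. Fold changes near 0 changed sign. With reads outside genes as covariate, a measure that itself differed between the genotypes, the log2 fold change was -0.22 for Per1, 0.43 for Per3, 0.16 for Nr1d1 and 0.27 for Bmal1, while it kept its sign and moved to 0.87 for Dbp, 0.70 for Ciart, -0.58 for Per2, 0.42 for Nr1d2, 0.29 for Hlf, 0.13 for Tef and 0.02 for Clock; for Per1 it was -0.0011 with TMM factors and -0.0075 with 1 surrogate variable. With each animal left out in turn, the ranges that crossed 0 were -0.081 to 0.11 for Per1, -0.20 to 0.064 for Per2, -0.024 to 0.29 for Dbp, -0.025 to 0.045 for Tef, -0.0035 to 0.37 for Ciart, -0.022 to 0.10 for Clock and -0.27 to 0.052 for Bmal1. Of the 9 correlations with Dbp, 3 passed; 1 did with pooled values, 1 after adjustment for the share of reads outside genes, 1 without the 2 farthest animals, 0 in Abi3+/+ animals alone (2 at an unadjusted exact permutation p under 0.05) and 1 to 4 with an animal left out; fewer animals enter the last 3, and for the others the cause was not tested. Without the 2 farthest animals, r of Per1 with Dbp was -0.15 and of Clock with Bmal1 -0.024. Correlations with Bmal1 near 0 turned: Nr1d1 0.051 pooled, 0.070 in Abi3+/+ alone and 0.030 on linear counts; Hlf -0.049 pooled, -0.17 in Abi3+/+ alone and -0.043 after adjustment; Per2 -0.074 on linear counts. Left-out animals gave r with Bmal1 of -0.53 to 0.45 for Ciart, -0.065 to 0.21 for Clock, -0.16 to 0.21 for Nr1d1, -0.27 to 0.19 for Per2, -0.20 to 0.35 for Hlf and -0.39 to 0.16 for Per3. The labels do not say whether replicate numbers pair the animals. Same-number correlations were -0.02 to 0.12, with a mean of 0.040 against -0.008 for other pairs, which cannot decide it. With the replicate block 0 clock genes were called, and 33 genes in all against 95. Over all genes, calls ranged from 3 with the covariate to 120 without Abi3-/- replicate 4.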
